A study of Danio rerio with 5 samples.

Results

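The neuronal intermediate filament genes are 6 of the 31953 genes counted in these libraries: PRPH, INA, nefla, nefmb, nefma and the gene that the symbol table lists as NEFL. They were found by symbol, with neflb matched to NEFL. The set was put together with the posterior against anterior values of the same libraries already known, so differences of members between the groups are given below as descriptions, without a p-value. The study profiled motor neurons of the vagus nucleus in Tg(isl1:Kaede) zebrafish (Danio rerio) embryos at 28 to 30 hpf (hours post fertilisation). This nucleus lies in the hindbrain and sends its axons out through the branches of the vagus nerve. Posterior neurons were measured in 3 libraries (B, G and R) and anterior neurons in 2 (B and G). All libraries share the genotype, the stage and the preparation. The transgene drives Kaede, a fluorescent protein that light turns from green to red, from isl1, a gene active in motor neurons and in some other neurons. Light marked one end of the vagus population, and 100 marked cells per library were picked by hand from dissociated hindbrain. The labels do not say how many embryos stand behind a library or whether libraries came from separate sessions, so p-values measure only the spread between these libraries, which may be technical. Other libraries of the series were not analysed here.

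Intermediate filaments are the rope-like polymers of the cytoskeleton, and in neurons they fill the axon and set its calibre. PRPH encodes peripherin, a type III filament protein known in mammals from motor, autonomic and sensory neurons whose axons leave the central nervous system. RefSeq lists plasticin as another name of the zebrafish gene. INA encodes internexin, a type IV protein that appears early in differentiating neurons of mammals and co-assembles with the neurofilament subunits. NEFL and NEFM genes encode the light and medium neurofilament subunits, and in mammals the light subunit is the one the others need to form filaments. Zebrafish carry the light and medium subunit genes in duplicate, and the RefSeq gene table (assembly GRCz12tu) places neflb next to nefmb and nefla next to nefma, with 0 protein-coding genes between the members of either pair.

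The libraries held 14932562 to 20088585 reads assigned to genes and detected 10463 (posterior B) to 13589 (anterior G) genes. Values are given as CPM, a read count scaled to a library total of 1e+06 after TMM (trimmed mean) adjustment of the library totals. A gene at 0 could have had up to 3 reads by counting error alone, which is 0.148 to 0.193 CPM here. The labelled cell type was checked with 22 cranial motor neuron genes, of which 13 were detected in all 5 libraries, 6 in some and 3 in none. ISL1, PHOX2A and SLC18A3 were among the 13, while CHAT, the choline transporter gene SLC5A7 (ENSDARG00000074860) and MNX1 each had 0 reads in at least 1 library. ISL1 had 1794, 1806 and 2241 CPM in the posterior libraries B, G and R, against 2366 and 1837 CPM in anterior B and G. PHOX2A, a transcription factor gene of cranial motor neurons, had 1456, 106 and 308 CPM in posterior and 84.4 and 219 CPM in anterior libraries. Of the genes for making and packing acetylcholine, CHAT had 0, 11.02 and 10.3 CPM in posterior and 5.39 and 35.9 CPM in anterior libraries, and SLC18A3 had 11.2, 50.6 and 37.1 CPM in posterior and 31.1 and 139 CPM in anterior libraries.

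Of the 6 members, 3 were counted at levels that allowed a fit (PRPH, INA and nefmb), and all libraries of posterior neurons lay below both libraries of anterior neurons for each of them. For the 11827 genes tested, that pattern, lower in posterior with no overlap, held for 12.3%, and the opposite pattern for 9.57%. The rule that chose the members used this contrast, so nothing is read from the count of 3. The members summed to 127 ± 64.4 CPM (SD, n = 3) in posterior and 715 ± 482 CPM (SD, n = 2) in anterior libraries. The anterior sum came to 374 CPM in B and 1056 CPM in G. In bulk libraries, fewer cells that use a gene and less RNA of it per cell cannot be told apart.

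**Figure D1:**
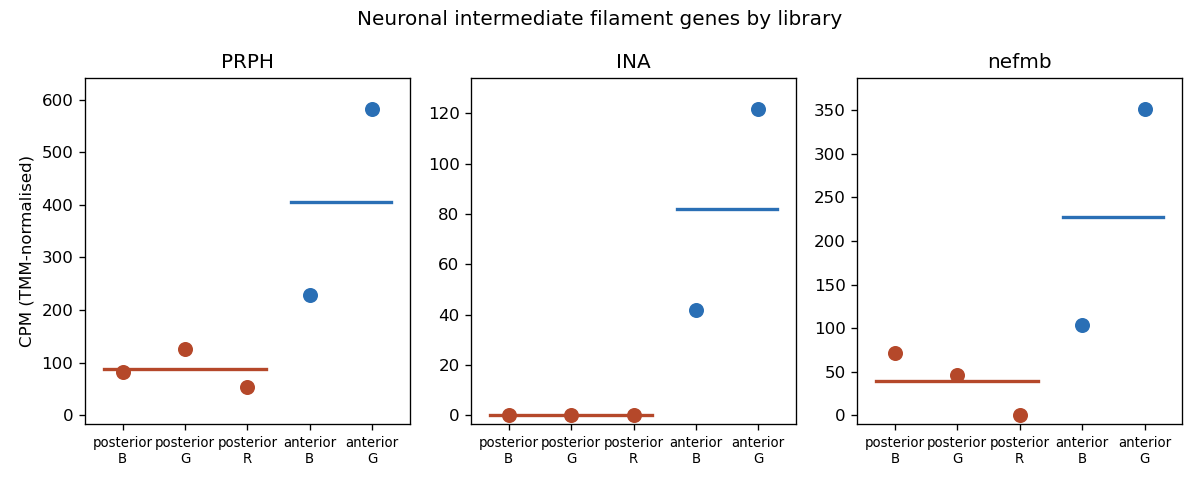
TMM-normalised CPM (y axes, linear, a separate scale per panel) of PRPH, INA and nefmb in posterior B, G and R and anterior B and G; points are libraries and lines are group means. Anterior G is the highest library in all 3 panels, INA is at 0 in the 3 posterior libraries, and nefmb is at 0 in posterior R.

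PRPH (ENSDARG00000028306) was counted in every library. It had 1288, 2006 and 1015 reads in posterior B, G and R, or 83.1, 126 and 53.2 CPM, and 3898 and 11842 reads in anterior B and G, or 229 and 582 CPM. The posterior libraries were all below the lower of the anterior ones, and the anterior libraries differed from each other 2.55-fold. The means were 87.5 ± 36.8 CPM (SD, n = 3) in posterior and 405 ± 250.2 CPM (SD, n = 2) in anterior libraries, a log2 fold change of -2.24 ± 0.55 (approximate SE, edgeR). Within the libraries named B the posterior value was 2.75 times lower, and within those named G it was 4.61 times lower. Set against ISL1 in the same library, there were 4.63, 6.996 and 2.38 PRPH reads per 100 ISL1 reads in posterior B, G and R, against 9.66 and 31.7 in anterior B and G. ISL1 differed little between libraries (1794 to 2366 CPM), so this scaling could not reorder the groups, and nothing is read from the like order.

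INA (ENSDARG00000053248) was found in anterior libraries alone. It had 0 reads in posterior B, G and R, and 714 and 2474 reads in anterior B and G, or 41.9 and 122 CPM. The anterior mean was 81.8 ± 56.4 CPM (SD, n = 2). Taking the highest posterior floor of 3 reads per library, the posterior level was at least 423-fold lower than that mean. The floor covers the counting of reads only. Libraries from 100 cells also lose transcripts before sequencing, and zeros at this abundance were not rare in single libraries. Among 2934 other genes detected in both anterior libraries with an anterior mean within 0.5 to 2 times that of INA, posterior B was at 0 for 10.1%, posterior G for 2.52% and posterior R for 2.08%. In 10 of those 2934 genes (0.341%) all posterior libraries were at 0. Looked at the other way, of 2725 genes detected in all posterior libraries at a mean in the same range, 4 (0.147%) were at 0 in both anterior libraries. These shares describe the libraries and are not a test of INA, which was among the members because of its values. A second identifier with the symbol INA (ENSDARG00000011862) had 0 reads in all 5 libraries and is not counted as a member. The symbol table does not say which identifier is which of the zebrafish genes inaa and inab.

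The medium neurofilament gene nefmb (ENSDARG00000043697) had 1107, 737 and 0 reads in posterior B, G and R, or 71.4, 46.4 and 0 CPM, and 1774 and 7147 reads in anterior B and G, or 104 and 351 CPM. The groups did not overlap, but posterior B and anterior B stood 1.46-fold apart, less than the 3.38-fold between the anterior libraries. Within the libraries named G the posterior value was 7.57 times lower. The means were 39.3 ± 36.2 CPM (SD, n = 3) in posterior and 228 ± 175 CPM (SD, n = 2) in anterior libraries. The log2 fold change was -2.62 ± 0.84 (approximate SE, edgeR). That SE was larger with other tools, at 1.86 with DESeq2 and 3.15 with limma-voom. Of 2126 other genes detected in the remaining 4 libraries at a mean within 0.5 to 2 times that of nefmb, 4 (0.188%) were at 0 in posterior R. That mean takes in anterior G, at 351 CPM, and lies above the 71.4 and 46.4 CPM of nefmb in posterior B and G. The share describes the library and is not a test of nefmb, which was among the members because of its values.

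The other neurofilament genes were at or near 0 throughout. NEFL (ENSDARG00000012426), the light subunit gene, had 0 reads in the posterior libraries and 0 and 1 reads in anterior B and G, although its RefSeq neighbour nefmb had 7147 reads in anterior G. The light subunit gene nefla (ENSDARG00000057568) and the medium subunit gene nefma (ENSDARG00000021351) had 0 reads in all 5 libraries. Zero counts in every library were common in these files, at 44.1% of all genes. Reads that aligned to several places were left out of the gene counts and made up 16.5% to 20.3% of the reads listed per file, so a gene whose reads are shared with a near-identical copy would be undercounted. No light subunit gene was therefore detected above 1 read in these cells, while 1 medium subunit gene was.

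Ratios between members of the same library remove the library total and, within a gene pair, transcript length. In anterior B and G there were 18.3 and 20.9 INA reads per 100 PRPH reads, although PRPH itself differed 2.55-fold between them. The posterior libraries had no INA reads beside 1288, 2006 and 1015 PRPH reads, which allows at most 0.233, 0.15 and 0.296 INA reads per 100 PRPH reads by counting error. At the lower of the anterior ratios, these PRPH counts would stand beside 236, 367 and 186 INA reads. Those numbers leave out the loss of transcripts before sequencing. They describe the libraries and are not a test of INA, which was among the members because of its values. For nefmb the ratio did not separate the groups. It was 85.9, 36.7 and 0 reads per 100 PRPH reads in posterior B, G and R, and 45.5 and 60.4 in anterior B and G. The posterior B library thus had the highest nefmb to PRPH ratio of all, and posterior R, where PRPH was lowest too, had none.

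**Figure D2:**
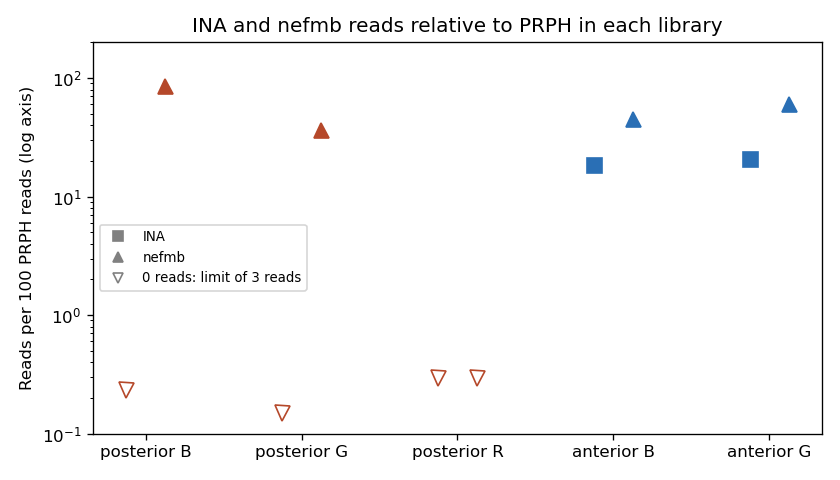
Reads of INA (squares) and nefmb (upward triangles) per 100 PRPH reads (y axis, log scale) in each library; open downward triangles mark 0 reads and are drawn at the limit of 3 reads. INA stands at 18.3 and 20.9 in anterior B and G and at its limit in the posterior libraries, while nefmb in posterior B and G lies on either side of its anterior values.

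The size of each difference depended on anterior G, the library with the highest value of all 3 genes. With that library left out, the log2 fold change of PRPH was -1.41 ± 0.66 and that of nefmb -1.49 ± 1.103 (edgeR, with the lone anterior library assumed to vary like the posterior ones), and the bound for INA was 219-fold. Leaving out anterior B gave -2.75 for PRPH, -3.24 for nefmb and 632-fold for INA. For nefmb, posterior R mattered as well, with -1.95 ± 0.78 without it and -3.38 ± 1.105 without posterior B. All of these values kept the sign they had with 5 libraries, which the choice of members makes likely. Anterior G stood further above anterior B for these genes than for most genes of their abundance. Among the 900 tested genes with an anterior mean within 0.5 to 2 times that of PRPH, the median ratio of anterior G to anterior B was 0.925, and 4.78% of them had a ratio of at least 2.55. The like share was 10.9% for INA and 4.71% for nefmb. These shares leave out genes with as wide a gap in the other direction, higher in anterior B.

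**Figure D3:**
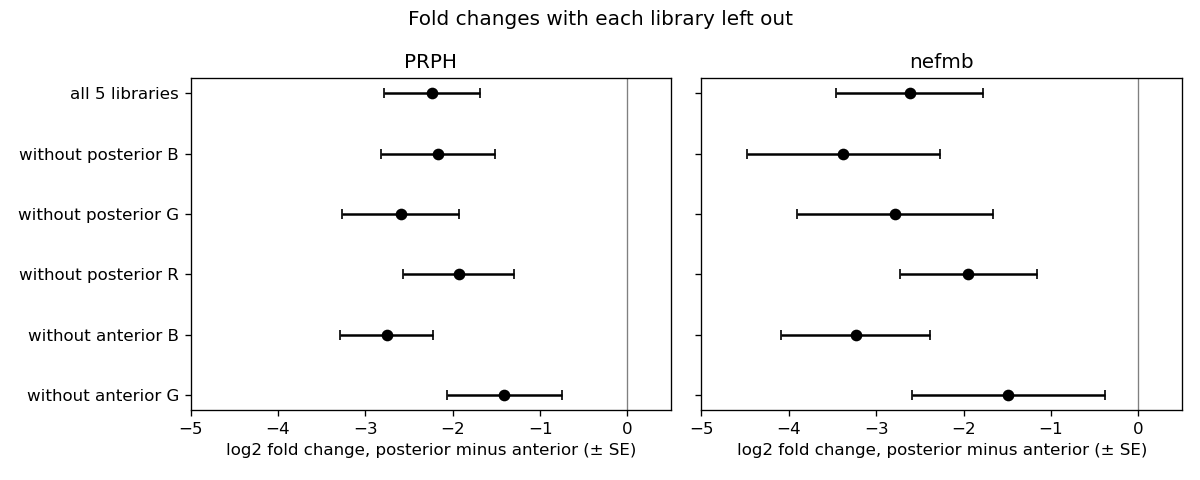
Log2 fold change, posterior minus anterior (x axis, bars are ± the approximate SE), of PRPH and nefmb with all 5 libraries and with each library left out. PRPH runs from -2.75 to -1.41 and nefmb from -3.38 to -1.49, and for both the value nearest 0 is the one without anterior G.

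Each member was compared with the other 8023 tested genes with a mean of at least 10 CPM for the likeness of their profiles over the 5 libraries. The measure was the root-mean-square difference of log2(CPM + 1) after each gene's own mean was removed, so a small value means a similar profile of similar size. The genes most like PRPH were RND3 (ENSDARG00000076799), TUBB2B (ENSDARG00000039522), a neuronal beta tubulin gene, and DPYSL3 (ENSDARG00000002587), a gene of axon growth, at differences of 0.25, 0.27 and 0.38. TUBB2B had 76.6, 110 and 77.6 CPM in the posterior libraries and 208 and 547 CPM in anterior B and G, close to PRPH in every library. RND3 had 173, 358 and 170 CPM in posterior and 723 and 1308 CPM in anterior libraries. In both genes, as in PRPH, posterior G and anterior G were the highest libraries of their groups.

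INA was closest to si:ch211-257p13.3 (ENSDARG00000053431), EML2 (ENSDARG00000008808), which encodes a microtubule-binding protein, and sox19b (ENSDARG00000040266), a SoxB transcription factor gene of neural precursors, at 0.39, 0.42 and 0.54. None of these had more than 0.193 CPM in a posterior library, and in anterior B and G they had 57.4 and 71.7, 34.9 and 61.4, and 40.04 and 49.5 CPM. The genes nearest to nefmb were gfra3 (ENSDARG00000087704), a GDNF family receptor gene, ACKR3 (ENSDARG00000058179), which encodes a chemokine scavenging receptor, and FBXO46 (ENSDARG00000099814), at 0.43, 0.77 and 0.80. In posterior R, gfra3 and ACKR3 had 0 CPM and FBXO46 had 0.052 CPM, beside the 0 of nefmb. The 3 members were not among each other's nearest genes. At 2.02 between PRPH and INA, 1.996 between PRPH and nefmb and 2.48 between INA and nefmb, their differences were larger than those of the nearest genes, and the zeros of INA and nefmb weigh heavily on this scale.

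**Figure D4:**
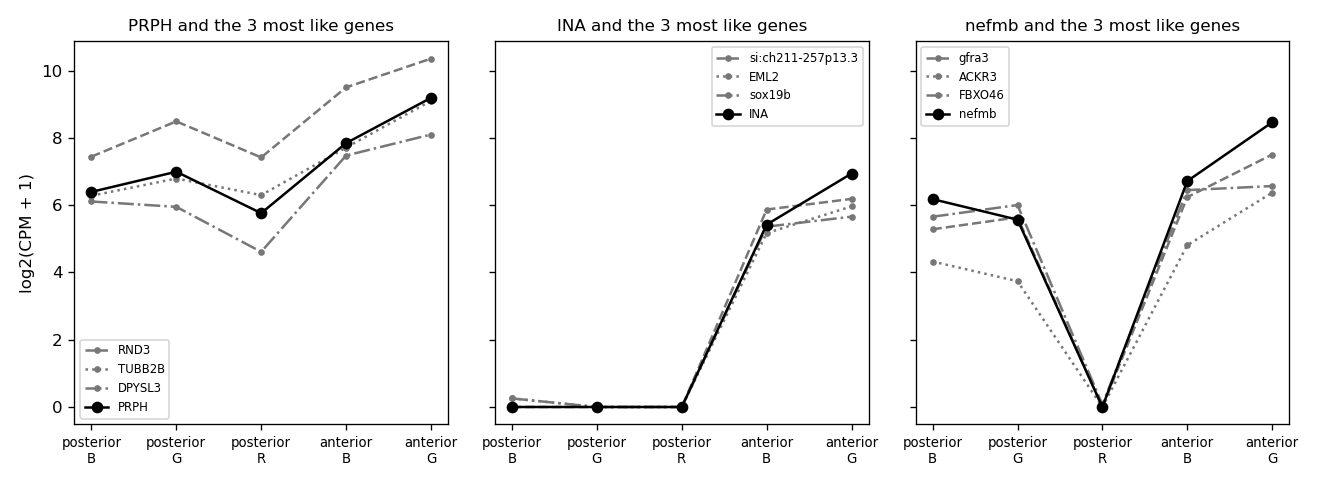
log2(CPM + 1) (y axis) by library for PRPH, INA and nefmb (black) and the 3 genes with the most similar profile to each (grey); lines join libraries only to guide the eye. The PRPH profile has no zero, INA and its nearest genes are at or near 0 in the posterior libraries, and nefmb and its nearest genes are at or near 0 in posterior R.

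Other intermediate filament genes lay on both sides of 0. Of 31 such genes found, 10 were tested, 7 of them with a higher and 3 with a lower fitted value in posterior libraries. None had an edgeR unadjusted p under 0.05, where 6.49% of all tested genes did. The groups did not overlap in 0 genes higher and 1 lower, beside 9.57% and 12.3% of all tested genes. The median log2 fold change of the list was 0.45, against -0.055 for all tested genes, and it was 1.84 without anterior B and 0.15 without posterior B. Without anterior G it was 1.22, and 5 of 15 genes then tested had an unadjusted edgeR p under 0.05, 2 higher and 3 lower. VIM (ENSDARG00000010008), the vimentin gene of progenitors and young neurons, had 605, 514 and 449.9 CPM in the posterior libraries and 267 and 619 CPM in anterior B and G, with overlapping groups (log2 fold change 0.23 ± 0.41, edgeR adjusted p 0.939). GFAP, the radial glial filament gene, had 43.9, 28.0 and 50.6 CPM in posterior and 0.234 and 72.0 CPM in anterior libraries (edgeR adjusted p 0.994). The smallest p in the list was that of nes, the nestin gene of neural progenitors, at 0.387, 66.4 and 24.4 CPM in posterior and 146 and 78.5 CPM in anterior libraries (edgeR adjusted p 0.726). All posterior libraries lay below both anterior ones for nes, as for the tested members. Unlike those members, nes was higher in anterior B than in anterior G. The next smallest p among genes lower in posterior libraries was that of the keratin gene krt18a.1, with an edgeR adjusted p of 0.757. In the other direction the smallest p belonged to LMNB1, a nuclear lamina gene, and IFFO2 (ENSDARG00000102911), with edgeR adjusted p of 0.750 and 0.821. VIM and GFAP are genes of progenitors as well as filament genes. The summed list of progenitor and radial glia genes overlapped between groups, at 9274 to 11078 CPM in posterior and 8857 to 11844 CPM in anterior libraries. Of 26 genes tested in that list, 17 had a higher and 9 a lower fitted value in posterior libraries. Their median log2 fold change was 0.25, and it ran from 0.24 to 0.57 with one library left out. The groups did not overlap in 4 genes higher and 3 lower, beside 9.57% and 12.3% of all tested genes.

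Genes whose products link, carry or modify neuronal filaments had fitted values in both directions. Of 27 tested, 12 had a higher and 15 a lower fitted value in posterior libraries. An unadjusted edgeR p under 0.05 was found for 1 gene higher and 2 lower, beside 2.28% and 4.21% of all tested genes in those directions. The groups did not overlap in 0 genes higher and 5 lower, beside 9.57% and 12.3% of all tested genes. The median log2 fold change was -0.16, and without anterior G it was 1.19. No gene of the list had an adjusted p under 0.05. The gene kif5c (ENSDARG00000076027) encodes a kinesin-1 heavy chain, the motor family that moves neurofilaments along axons. It had 0, 3.34 and 0.105 CPM in the posterior libraries and 57.04 and 56.6 CPM in anterior B and G (edgeR adjusted p 0.726). CDK5R1 (ENSDARG00000037916) encodes an activator of Cdk5, a kinase that phosphorylates neurofilament tails, and had 0 CPM in the posterior libraries and 5.86 and 4.38 CPM in anterior B and G (edgeR adjusted p 0.726). The second CDK5R1 gene (ENSDARG00000045087) had 0, 23.7 and 52.5 CPM in posterior and 25.5 and 48.7 CPM in anterior libraries, and its groups overlapped. In the other direction were the kinase gene MAPK3, at 134, 10.6 and 60.7 CPM in posterior and 10.02 and 10.7 CPM in anterior libraries (edgeR adjusted p 0.726), and the kinesin gene KIF5A (edgeR adjusted p 0.733).

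The list of axon growth and neuron maturation genes had mostly lower fitted values in posterior libraries, in the direction of the filament genes. Of 48 genes tested, 39 were lower and 9 higher, with a median log2 fold change of -0.79, where 52.1% of all tested genes were lower. An unadjusted edgeR p under 0.05 was found for 17 genes lower and 1 higher, beside 4.21% and 2.28% of all tested genes. The groups did not overlap in 21 genes lower and 4 higher, beside 12.3% and 9.57%. No gene passed an adjusted p of 0.05. Like the other lists, this one was chosen with earlier results of these data known, so its counts are descriptions. Summed, the list had 27225 to 28839 CPM in posterior and 34630 to 38483 CPM in anterior libraries. The median was -0.13 without anterior G, the library in which the filament genes were also highest. The part of neuron maturity in the differences of the filament genes was not tested. The smallest p-values belonged to STMN1 (ENSDARG00000033655), a microtubule regulator gene, and rtn1b, a reticulon gene. The second STMN1 gene (ENSDARG00000004169) had 2982, 2308 and 1804 CPM in posterior and 2492 and 1174 CPM in anterior libraries. Its groups overlapped, with a log2 fold change of 0.37 ± 0.32. The rtn1b values were 174, 159 and 146 CPM in the posterior libraries and 688 and 508 CPM in anterior B and G, a log2 fold change of -1.91 ± 0.39 (edgeR adjusted p 0.373). Both rtn1b and STMN1 were higher in anterior B than in anterior G, but 37 of the 48 genes tested (77.1%) were higher in anterior G, as PRPH, INA and nefmb were, beside 51.4% of all tested genes. Higher in posterior libraries were the adhesion gene NCAM1 (ENSDARG00000056181), with 352, 261 and 281 CPM in posterior and 156 and 117 CPM in anterior libraries (edgeR adjusted p 0.726), and SNCG, a synuclein gene (edgeR adjusted p 0.726).

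**Figure D5:**
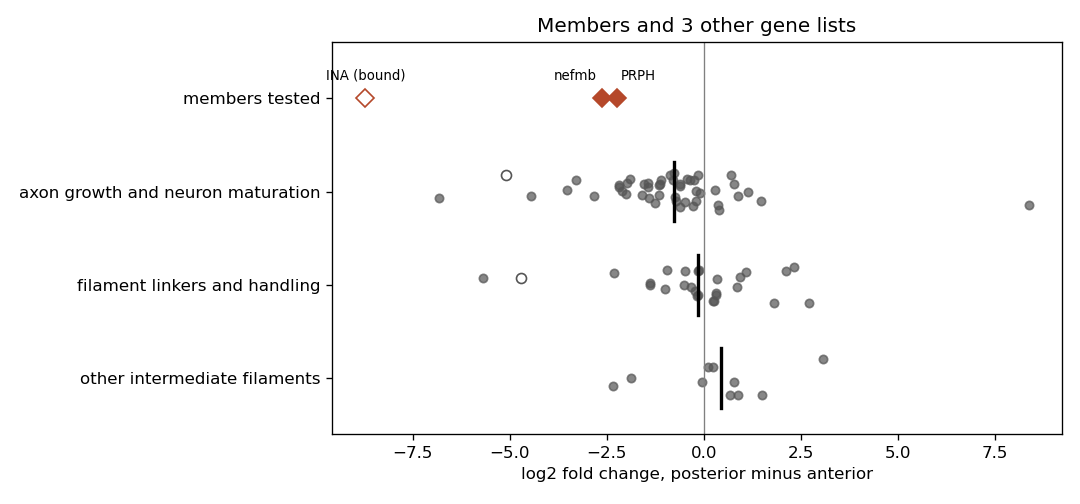
Log2 fold change, posterior minus anterior (x axis), of the 3 tested members (diamonds) and of the tested genes of 3 lists (circles; black bars are list medians). Open symbols are genes with 0 reads in every posterior library, drawn at the bound set by 3 reads; the medians are -0.79 for axon growth and neuron maturation, -0.16 for linkers and handling, and 0.45 for other intermediate filaments.

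Peripherin is also a gene of sensory neurons, so markers of other cells were summed. Cranial sensory neuron genes had 153 to 482 CPM in posterior and 437 to 457 CPM in anterior libraries, with the groups overlapping, and 6 of 25 genes were at 0 throughout, among them both P2RX3 genes and TRPA1. Of 12 sensory genes tested, 6 had a higher and 6 a lower fitted value in posterior libraries. An unadjusted edgeR p under 0.05 was found for DRGX, higher, and for EYA1 and 1 SCN8A gene (ENSDARG00000018032), lower. Of all tested genes, 2.28% were higher and 4.21% lower at that threshold. DRGX, a sensory neuron transcription factor gene, had 149, 61.03 and 109 CPM in posterior and 0 and 0.098 CPM in anterior libraries. That SCN8A gene, of a sodium channel, had 0 CPM in posterior and 23.6 and 11.2 CPM in anterior libraries. The second SCN8A gene (ENSDARG00000005775) had 43.5, 4.47 and 33.6 CPM in posterior and 151 and 7.97 CPM in anterior libraries. Its groups overlapped. EYA1, a placode gene, had 145, 35.4 and 65.9 CPM in posterior and 96.1 and 361 CPM in anterior libraries. Interneuron genes had 128 to 262 CPM in posterior and 129 to 501 CPM in anterior libraries, the highest being anterior G, and 6 of 28 were at 0 throughout, among them both SLC17A6 genes. Of 10 tested, 7 had a lower and 3 a higher fitted value in posterior libraries, with a median log2 fold change of -0.93. The groups did not overlap in 2 genes higher and 1 lower, beside 9.57% and 12.3% of all tested genes. Of the higher, lhx1a had 10.4, 3.53 and 17.3 CPM in posterior and 0.352 and 0 CPM in anterior libraries. DBX1 (ENSDARG00000086393) had 82.5, 96.9 and 58.1 CPM in posterior and 0 and 37.4 CPM in anterior libraries. An unadjusted edgeR p under 0.05 was found for 2 genes, both lower, beside 4.21% of all tested genes in that direction. They were en1b, at 0, 0 and 3.04 CPM in posterior and 50.6 and 97.8 CPM in anterior libraries, and PAX2 (ENSDARG00000028148), at 0, 22.6 and 0 CPM in posterior and 0.0586 and 132 CPM in anterior libraries. Without anterior G the median of the interneuron list was 6.75. Neural crest and glia genes had 85.9 to 235 CPM in posterior and 261 to 448 CPM in anterior libraries. Their sums did not overlap between the groups and were lower in posterior libraries, as for PRPH, INA and nefmb. The 7 tested had a median log2 fold change of -2.62, or -0.40 without anterior B. Gene by gene, the groups did not overlap in 2 lower and 0 higher, beside 12.3% and 9.57% of all tested genes. An unadjusted edgeR p under 0.05 was found for 2 collagen genes, both lower, beside 4.21% of all tested genes in that direction. These were col1a1a, at 0, 17.1 and 0 CPM in posterior and 192 and 18.8 CPM in anterior libraries, and COL1A2, at 0, 0 and 15.4 CPM in posterior and 131 and 0.836 CPM in anterior libraries. PRRX1 (ENSDARG00000033971), a mesenchyme gene, had 0.0645, 14.8 and 0 CPM in posterior and 23.6 and 33.5 CPM in anterior libraries. In that list 8 of 19 genes were at 0 in every library, including SOX10, FOXD3 and erbb3b, and anterior B, not anterior G, had the higher sum. Blood, vessel, muscle, skin and microglia genes had 1.23 to 47.0 CPM in posterior and 0.197 to 151 CPM in anterior libraries, and 16 of 25 were at 0 in every library. Genes of the stress that follows dissociation had 6134 to 9803 CPM in posterior and 8583 to 8871 CPM in anterior libraries. The summed cranial motor neuron list overlapped between groups, at 7866 to 8373 CPM in posterior and 7556 to 8176 CPM in anterior libraries. Of its 18 genes tested, 7 had a higher and 11 a lower fitted value in posterior libraries. Their median log2 fold change was -0.35, or 1.02 without anterior G. At an unadjusted edgeR p under 0.05 there were 1 gene higher and 3 lower, beside 2.28% and 4.21% of all tested genes. The part of motor neurons or of other cells in the differences of the members was not tested.

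Across the whole table, 0 of 11827 genes had an edgeR adjusted p under 0.05, and the smallest was 0.219. An unadjusted p under 0.05 was found for 768 genes, and DESeq2 called 252 at its adjusted threshold.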

How the data were processed

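Each library has a deposited file of raw read counts, with Ensembl gene identifiers and no normalization. The submitters' processing notes name TopHat2 2.1.0, HTSeq 0.6.1, bcl2fastq 1.8.4 and the build GRCz10, and the annotation release and use of strand are not given in the sources used here. Lines for reads given to no gene, 27.5% to 31.0% of the listed reads, were left out. Per the labels' protocols, cDNA was made with SMART-Seq v4, with no molecular identifiers described, so floors cover counting error only.

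Counts were tested with the edgeR 4.0.16 quasi-likelihood test in R 4.3.3 (TMM, filterByExpr with a minimum count of 10 and a total of 15, two-sided, Benjamini-Hochberg over 11827 genes, threshold 0.05). The fitted value of INA is not given, as it depends on the prior count. Libraries were grouped by source name. The members and lists were chosen with earlier results of these data known. Named list genes are the 2 with the smallest p in each direction. VIM, GFAP, the second CDK5R1 and STMN1 genes, SLC5A7, MNX1 and the named markers of other cell types were added after values were seen. A few marker symbols had no match, and 1 marker gene under the naming rule is not reported here. Symbols came from a table that covered 26121 of 31953 identifiers, many in capitals without the zebrafish suffix. Alternatives used limma 3.58.1 and DESeq2 1.42.0.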

Additional observations from a re-analysis of the deposited data

How the results depend on the processing

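PRPH and nefmb were lower in posterior libraries under every setting run. These were RLE size factors, library totals alone, no filter, a mean CPM of at least 5, DESeq2, limma-voom and a prior count of 2. Also run were the legacy form of edgeR (chosen after seeing the data), 4 libraries and each library left out. The members were chosen with this contrast known and their groups did not overlap, so nothing is read from the constant sign. With one library left out, the log2 fold change ran from -2.75 to -1.41 for PRPH and from -3.38 to -1.49 for nefmb, the bound for INA from 219 to 632-fold, and the number of genes called from 0 to 7. Limma-voom gave -5.73 ± 3.15 (SE) for nefmb, which has a zero, and the cause was not tested. The SE of nefmb was also larger with DESeq2 (-2.50 ± 1.86) and the legacy form of edgeR (-2.54 ± 1.96) than in the main fit (-2.62 ± 0.84). The count of 0 genes called became 252 with DESeq2 (157 higher and 95 lower in posterior), and genes with an unadjusted p under 0.05 ran from 211 with the block to 1049 with DESeq2. With the letter as a replicate block over the 4 libraries that share letters, the values were -1.83 for PRPH and -1.73 for nefmb, and 0 genes were called. Without the block, these libraries gave -1.93 and -1.95. Deviations of libraries sharing a letter had a correlation of -0.0019 (B) and 0.0063 (G) across genes. The deviations of the 2 anterior libraries from their own mean mirror each other, so these correlations are not separate checks. They cannot settle whether a letter pairs libraries, and the main fit does not use the letters. Of 50 list medians with one library left out, over 10 lists, 17 moved by more than the spread between libraries and 8 changed sign. Depth sets the bound for INA, through a posterior floor of at most 0.193 CPM.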
